A study of Mus musculus with 6 samples.

Results

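The distal part of mouse chromosome 4 holds a dense group of closely related zinc finger genes and their pseudogenes, and the genes counted here are those of GENCODE (GRCm38) in a window of 3 Mb, from Tnfrsf1b to Nppb (chr4:145213463-147987205), whose symbol begins with Zfp or Gm or ends in Rik, lincRNAs left out. The rule found 77 of the 43629 genes in the table, from chr4:145390943 to chr4:147947314. RNA had been sequenced from cultured keratinocytes of 3 control and 3 Dnmt1Δ/Δep mice. In Dnmt1Δ/Δep mice, Cre under the Keratin 5 promoter deletes floxed Dnmt1 in the epidermis, whereas the control libraries are labelled control by genotype and wt in their titles, and controls in the study's description carry the floxed allele without Cre. All 6 mice are labelled female, their epidermis was taken at postnatal day 3, and the cells were cultured for 5 days. The mouse lines had a mixed C57BL/6J and 129SV background, and which strain each mouse carried over this region of chromosome 4 is not given in the sources used here.

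Most zinc finger genes of such clusters encode KRAB zinc finger proteins, in which an array of zinc fingers reads a DNA sequence and the KRAB domain recruits the corepressor TRIM28, which in turn brings the histone methyltransferase SETDB1. Their best known targets are endogenous retroviruses, and in mouse embryonic stem cells this cluster is known to hold repressors of the ETn family. DNMT1 copies DNA methylation to the new strand at replication, and promoters and retroviral sequences that are methylated in somatic cells depend on it. Clusters of this kind expand by local duplication, so that neighbours can share long identical stretches, and a read that matches several of them equally well is discarded when only uniquely mapped reads are counted.

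By sequence, 19 of the 77 members were coding zinc finger genes and 2 were zinc finger pseudogenes (Gm13230 and Gm13147). A further 50 were pseudogenes without the zinc finger pattern, 3 were other coding genes and 3 were antisense transcripts. The pattern sought in the translated transcripts was a pair of cysteines followed by a pair of histidines at the usual spacing, and the coding zinc finger genes held between 2 (Zfp993) and 24 (Zfp600) of them. A zinc finger cluster is thus the name of 21 members, and most of the others were pseudogenes without that pattern. The 2510039O18Rik gene at the distal edge has no zinc finger pattern, yet it took 63.1% of the reads of all members together with Gm21411 and Gm16503, while the coding zinc finger genes took 32.3%.

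The sequences of single zinc fingers show how alike the members are. Each line holds the first complete finger unit in the transcript of 1 gene, with the codons of the paired cysteines and histidines in capitals, read 5′ to 3′ on the strand of the gene. The units were taken from GENCODE M21 transcripts (GRCm38), at chr4:145449619-145449702 for Gm13230, chr4:145537157-145537240 for Zfp990, chr4:147613309-147613392 for Zfp979, chr4:147178891-147178974 for Zfp991 and chr4:146657944-146658027 for Zfp993, of which only that of Zfp979 is on the minus strand.
Gm13230: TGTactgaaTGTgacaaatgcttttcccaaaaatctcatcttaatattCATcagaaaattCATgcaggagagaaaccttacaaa
Zfp990: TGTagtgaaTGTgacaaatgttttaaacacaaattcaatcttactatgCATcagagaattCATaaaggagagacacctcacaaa
Zfp979: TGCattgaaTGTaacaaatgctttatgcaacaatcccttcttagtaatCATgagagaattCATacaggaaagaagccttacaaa
Zfp991: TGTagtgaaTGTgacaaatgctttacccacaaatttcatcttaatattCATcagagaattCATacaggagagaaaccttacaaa
Zfp993: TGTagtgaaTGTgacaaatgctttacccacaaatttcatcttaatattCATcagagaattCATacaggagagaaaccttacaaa
The units of Zfp991 and Zfp993 differed at 0 of 84 bases, and the same unit also occurred whole in the pseudogene Znf41-ps. A read that lies within it cannot be assigned to any of these genes. The unit of Gm13230 differed from that of Zfp991 at 6 bases and from that of Zfp990 at 16, and it occurred whole in 1 other gene, Platr16, whose exon lies over it. The units of Zfp990 and Zfp979 shared no run of 50 bases with any other gene.

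Across whole transcripts, each gene was cut into overlapping words of 50 bases and the share of words that also occur in another gene was counted. The median was 61.98% over the 77 members and 29.5% over the 16 of them that were tested. It was 0.78% over all genes tested and 0.87% over the tested Zfp genes elsewhere in the genome. At least 20% of the words were shared in 63 members (81.8%) and in 12 of the tested members (75%), beside 14.8% of all genes tested. The share was 25.2% for Gm13230, 29.1% for Zfp990 and 27.1% for Zfp979. Of the words of Gm13230, 16.5% were shared with Platr16, with which it overlaps (18.4% of its exonic bases are exonic in another gene), and only 4.53% occurred in another member. The largest partner of Zfp979 was Zfp600 (18.9% of the words) and that of Zfp990 was Zfp987 (13.1%). Among the tested members, Zfp991 and Zfp993 had the highest shares with 82.2% and 86.8%, and Zfp933, the most distal zinc finger gene, had 1.83%. Over all members the share reached 100%.

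The depth of the libraries was 53433121 to 115526598 gene counts, and a limit of 3 counts for a gene without reads corresponded to 0.0254 to 0.0558 CPM (counts scaled to a library of 1000000 gene counts). No count was recorded in any library for 17 members, 25 members had 1 to 9 counts over the 6 libraries and 35 had 10 or more. The filter on low counts left 16 members to be tested, namely 10 coding zinc finger genes, the pseudogene Gm13230, 4 other pseudogenes and 2510039O18Rik. It left out 19 members with 10 or more counts. The median share of shared words was 36.0% in the 10 tested coding zinc finger genes and 71.3% in the 9 that were not tested. Members that were not counted can therefore not be taken as silent.

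**Figure D1:**
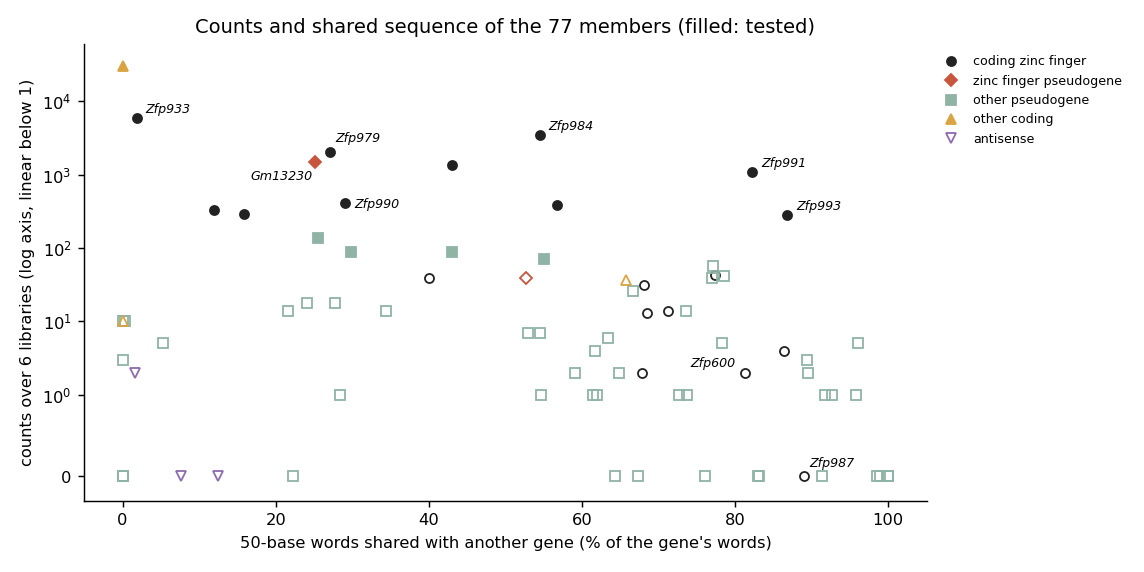
Each point is 1 of the 77 members, with the share of its 50-base words that occur in another gene on the x axis (percent) and its counts over the 6 libraries on the y axis (log scale, linear below 1); filled symbols passed the filter on low counts, open symbols did not, and colour and shape give the kind of gene. Zfp933 stands at 1.83% with 5893 counts, Zfp987 at 89.0% with 0 counts and Zfp991 at 82.2% with 1071 counts. A high share thus went with few counts in many members and not in all of them. Few counts also occurred without shared words, as in Gm15951 (0%, 0 counts) and Gm16503 (0%, 10 counts). The cause of low counts was not tested.

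Among the 16 tested members, 1 was called higher and 2 were called lower in Dnmt1Δ/Δep keratinocytes, a call being an adjusted p of at most 0.05 in edgeR's quasi-likelihood test and a change of at least 2-fold. Over all 16829 genes tested, 6.42% were called, 6.03% higher and 0.392% lower. The region and its examples had been picked because of this very comparison, so the counts and fold changes of the members are given as a description and no test is drawn from them. The 3 called members were the pseudogene Gm13230, which was higher, and the coding genes Zfp990 and Zfp979, which were lower. The gap between Gm13230 and Zfp990 was 59.9 kb, with 3 genes of the table between them. Zfp990 and Zfp979 lay 2073 kb apart.

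Gm13230 (chr4:145446740-145450888, plus strand) is annotated as a transcribed unprocessed pseudogene, that is a duplicated gene copy that is no longer taken as coding, and its transcript still held 10 zinc finger patterns. Replicates 1, 2 and 3 had 4, 1 and 5 counts as controls, whereas the Dnmt1Δ/Δep libraries had 362, 272 and 850. The gene was thus at 5 counts or fewer in each control and clearly present in every Dnmt1Δ/Δep library. The mean level was 0.0485 ± 0.0418 CPM in controls, against 5.47 ± 2.09 CPM in the cells with Dnmt1 deleted (SD, n = 3 each), with a log2 fold change of 6.97 ± 0.62 (SE). With so few control counts the value depended on the library left out, being 6.41 when control replicate 2 was left out and 7.64 when control replicate 3 was. Pooled over libraries, the ratio was 138, with a 95% interval of 74.9 to 289 that covers counting error only. Per length it reached 3.48 ± 1.33 RPKM (SD), that is CPM divided by the exonic length in kb, in Dnmt1Δ/Δep cells, where only 2510039O18Rik stood higher among the members, at 19.7 RPKM. In controls it ranked 24. The overlapping Platr16, a noncoding transcript on the same strand, had 0 counts in every control library and 9, 19 and 73 in the Dnmt1Δ/Δep libraries. Reads that lie on the exons of both genes are counted for neither under the union model, so neither set of counts covers the stretch they share. The other zinc finger pseudogene, Gm13147, was too low to be tested, with 2, 1 and 2 counts in controls and 15, 7 and 12 in Dnmt1Δ/Δep libraries. Its groups did not overlap either, and the pooled ratio was 6.33 (95% interval 2.46 to 20.7, counting error only).

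Zfp990 (chr4:145510759-145539188, plus strand) encodes a protein with 13 zinc finger patterns. It had 226, 55 and 106 counts in controls, against 3, 6 and 17 in Dnmt1Δ/Δep libraries. Every Dnmt1Δ/Δep value was below every control value, although the controls themselves ran from 0.564 to 2.39 CPM. The level fell from 1.64 ± 0.96 CPM to 0.0879 ± 0.0496 CPM (SD, n = 3 each), a log2 fold change of -4.12 ± 0.67 (SE). Pooled over libraries, control exceeded Dnmt1Δ/Δep 15.99-fold (95% interval 10.7 to 24.8, counting error only). Zfp990 was not called when Dnmt1Δ/Δep replicate 1 was left out, where the log2 fold change was -3.89.

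Zfp979 (chr4:147611937-147642513, minus strand) is listed in RefSeq with the synonym Ssm1b, a name given to a strain-specific modifier that directs DNA methylation of a transgene in the early mouse embryo. Counts were 714, 470 and 683 in controls and 38, 22 and 77 in Dnmt1Δ/Δep libraries. The groups were far apart, with the highest Dnmt1Δ/Δep library at 0.653 CPM and the lowest control at 4.82 CPM. The mean fell from 8.36 ± 4.01 CPM to 0.515 ± 0.226 CPM (SD, n = 3 each), with a log2 fold change of -4.02 ± 0.50 (SE). In control keratinocytes Zfp979 ranked 4 among the members per length (2.03 ± 0.97 RPKM, SD), close to Zfp984 (2.04 ± 0.82 RPKM). In Dnmt1Δ/Δep cells it stood at 0.125 ± 0.055 RPKM.

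**Figure D2:**
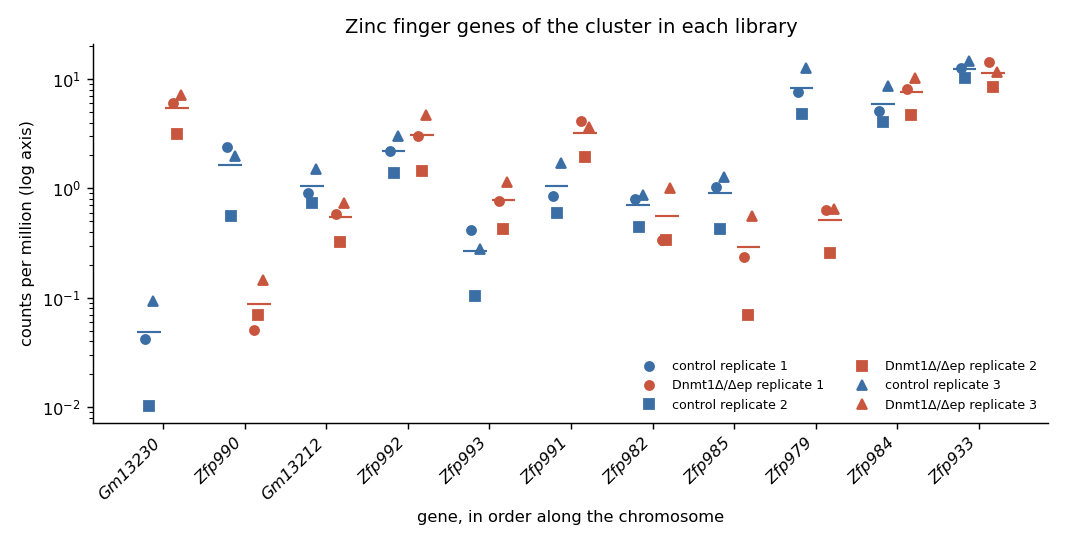
CPM (log axis) of the 11 tested zinc finger members in each library, in order along the chromosome, with control in blue and Dnmt1Δ/Δep in red, symbols for the replicate number and a short line at the mean of each group. Gm13230 lies below 0.1 CPM in controls and above 3 CPM in Dnmt1Δ/Δep libraries, Zfp990 and Zfp979 show the opposite order without overlap, and the groups of Zfp984 and Zfp933 overlap.

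The next tested zinc finger gene to Zfp979, 26.7 kb away with no other gene of the table between them, is Zfp985 (chr4:147553277-147585198, plus strand). It had 98, 41 and 68 counts in controls and 14, 6 and 66 in Dnmt1Δ/Δep libraries. In CPM the groups overlapped, since Dnmt1Δ/Δep replicate 3 (0.559) exceeded control replicate 2 (0.421), and the log2 fold change was -1.61 ± 0.72 (SE), which was not called. It was -2.61 without Dnmt1Δ/Δep replicate 3 and -1.20 without Dnmt1Δ/Δep replicate 2, again not called. With the replicate number as a block, Zfp985 was called lower at a log2 fold change of -1.84 ± 0.36. On the other side of Zfp979, 111 kb away, Zfp984 (chr4:147753974-147809788, minus strand) had 482, 398 and 463 counts in controls and 480, 406 and 1220 in Dnmt1Δ/Δep libraries. Its groups overlapped, with means of 5.93 ± 2.38 and 7.70 ± 2.84 CPM (SD, n = 3 each) and a log2 fold change of 0.38 ± 0.36 (SE). Of its exonic bases, 9.68% are also exonic in another gene.

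Gm13212 (chr4:145585166-145625345), the first coding zinc finger gene distal to Zfp990 at a gap of 46.0 kb, has 20 zinc finger patterns and shared 45.9% of its words with Zfp984. It had 86, 71 and 80 counts in controls and 35, 28 and 86 in Dnmt1Δ/Δep libraries. In CPM the groups just touched, the highest Dnmt1Δ/Δep value and the lowest control value both rounding to 0.729, and the log2 fold change of -0.92 ± 0.41 (SE) was not called. Zfp982 (chr4:147492417-147513486) had 76, 43 and 47 counts in controls against 20, 29 and 118. Dnmt1Δ/Δep replicate 3 stood above all controls in CPM and the other two below them all, with a log2 fold change of -0.31 ± 0.52 (SE). Leaving out that library gave -1.06 and leaving out Dnmt1Δ/Δep replicate 1 gave -0.06, neither of them called.

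A further 3 coding genes in the middle of the cluster had point estimates in the direction of Gm13230. Zfp991 (chr4:147132038-147180579) had 80, 58 and 91 counts in controls and 247, 169 and 426 in Dnmt1Δ/Δep libraries, without overlap between the groups in CPM. Its level was 1.04 ± 0.58 CPM in controls and 3.24 ± 1.14 CPM in Dnmt1Δ/Δep cells (SD, n = 3 each), a log2 fold change of 1.65 ± 0.45 (SE). It was not called in this fit and was called higher with the replicate block, at 1.69 ± 0.28, by DESeq2, without the filter on low counts and without control replicate 3. Zfp993 (chr4:146610961-146658160) had 39, 10 and 15 counts in controls and 46, 37 and 134 in Dnmt1Δ/Δep libraries. Its groups did not overlap in CPM, and its log2 fold change of 1.56 ± 0.57 (SE) was not called either, except with the block, at 1.61 ± 0.35. Of the words of Zfp993, 81.9% also occur in Zfp991. The pseudogene Znf41-ps, which holds 67.1% of the words of Zfp991, had 56, 30 and 49 counts in controls and 85, 57 and 192 in Dnmt1Δ/Δep libraries. Its log2 fold change was 1.05 ± 0.49 (SE) and its groups overlapped in CPM. Zfp992 (chr4:146449023-146470292), which shared 37.5% of its words with Zfp991, had 208, 136 and 161 counts in controls and 180, 126 and 553 in Dnmt1Δ/Δep libraries. The groups overlapped at a log2 fold change of 0.48 ± 0.45 (SE).

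**Figure D3:**
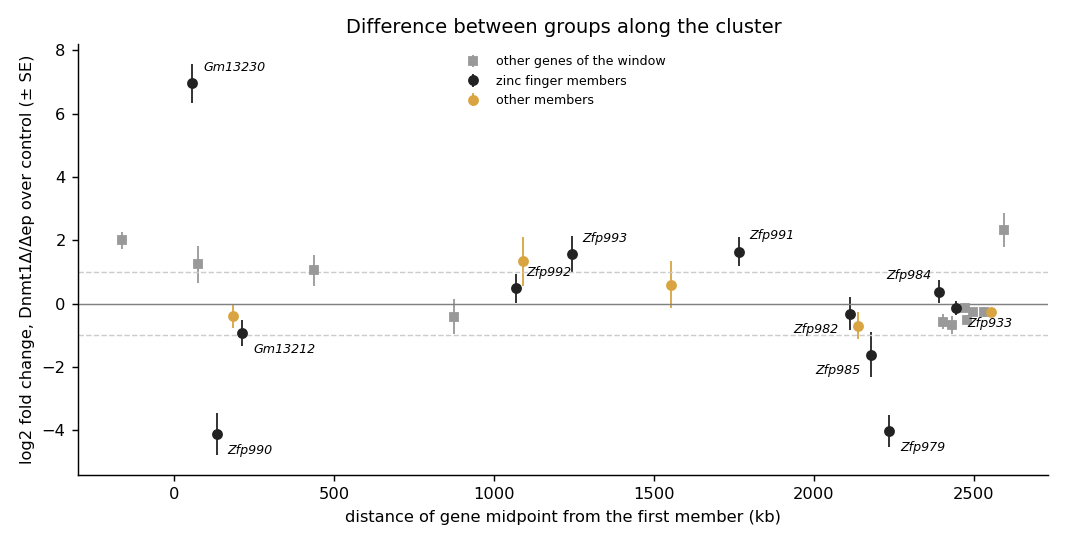
Log2 fold change of Dnmt1Δ/Δep over control (bars are 1 SE) against the distance of each gene's midpoint from that of the first member, Gm13024, in kb. Black points are zinc finger members, yellow points other members and grey squares the other tested genes of the window with counts in controls. Gm13230 at 6.97 and Zfp990 at -4.12 stand side by side near the proximal end, and Zfp979 at -4.02 stands between Zfp985 at -1.61 and Zfp984 at 0.38.

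At the distal end, Zfp933 (chr4:147822986-147848366, minus strand) was the zinc finger member with the highest mean CPM in both groups and the least shared sequence. Per length, it stood below Gm13230 in Dnmt1Δ/Δep cells (2.67 against 3.48 RPKM). It had 1184, 990 and 783 counts in controls and 847, 731 and 1358 in Dnmt1Δ/Δep libraries, with a log2 fold change of -0.12 ± 0.22 (SE). The 2 groups overlapped, and the 95% interval of the fitted difference ran from -0.65 to 0.40. The most distal member, 2510039O18Rik, is a coding gene without zinc fingers at 65.2 ± 6.2 CPM in controls and 53.9 ± 3.3 CPM in Dnmt1Δ/Δep cells (SD, n = 3 each). Its groups did not overlap, but the difference was small (log2 fold change -0.27 ± 0.11, SE) and not called. The 4 tested pseudogenes without the zinc finger pattern had 71 to 136 counts over the 6 libraries and none was called. Their log2 fold changes were -0.38 ± 0.38 for Gm13226, 1.34 ± 0.78 for Gm13245, 0.61 ± 0.73 for Gm13140 and -0.69 ± 0.43 for Gm13141 (SE). That of Gm13140 was 0.09 when control replicate 1 was left out and 1.64 when control replicate 3 was.

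Counting groups that did not overlap in CPM, 3 tested members were higher in every Dnmt1Δ/Δep library (Gm13230, Zfp991 and Zfp993) and 3 were lower (Zfp990, Zfp979 and 2510039O18Rik). The same was true of 29.9% of all genes tested, 18.2% in the first direction and 11.7% in the second. Over the 16 members, the median log2 fold change was -0.20, with 7 members above 0 and 9 below, beside a median of -0.00 over all genes tested. The median size of the log2 fold change was 0.80, and 43.75% of the tested members had a fitted log2 fold change of 1 or more in size, beside a median size of 0.23 and a share of 12.2% over all genes. These values describe genes of which some were picked for their difference.

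Summed over the coding zinc finger genes, the level was 34.2, 23.4 and 46.9 CPM in controls, against 32.4, 18.2 and 34.7 CPM in Dnmt1Δ/Δep libraries. These sums overlapped between the groups, while within each replicate number the Dnmt1Δ/Δep sum was the lower one, as it was without Zfp933. This direction rested on Zfp979, a called member: without it, a sum added after the values were seen, the level was 26.7, 18.6 and 34.2 CPM in controls, against 31.8, 17.9 and 34.0 CPM in Dnmt1Δ/Δep libraries, which was higher in number 1 and lower by under 1 CPM in numbers 2 and 3. In both groups replicate 2 was the lowest and replicate 3 the highest. The same order ran through the single genes: replicate 2 was the lowest control in 11 of the 11 tested zinc finger members and the lowest Dnmt1Δ/Δep library in 10 of them, and replicate 3 was the highest in 9 in each group. Libraries of the same number had been run on the same lane of the flow cell. For this reason the differences were also taken within each number, where Gm13230 was higher by 5.44, 4.88 and 5.24 on the scale of log2(CPM + 0.1) for numbers 1, 2 and 3. Zfp979 differed by -3.37, -3.80 and -4.09 and Zfp990 by -4.05, -1.97 and -3.09. Zfp985 differed by -1.76, -1.62 and -1.05, and Zfp991 by 2.17, 1.56 and 1.05. The values were 0.77, 1.38 and 1.70 for Zfp993. The members called neither with nor without the block included Zfp984 (0.65, 0.20 and 0.26), Zfp992 (0.44, 0.058 and 0.63) and Gm13212 (-0.55, -0.97 and -0.94). All of these kept 1 sign in the 3 numbers, whereas Zfp982 (-1.05, -0.31 and 0.17) and Zfp933 (0.18, -0.26 and -0.34) did not.

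**Figure D4:**
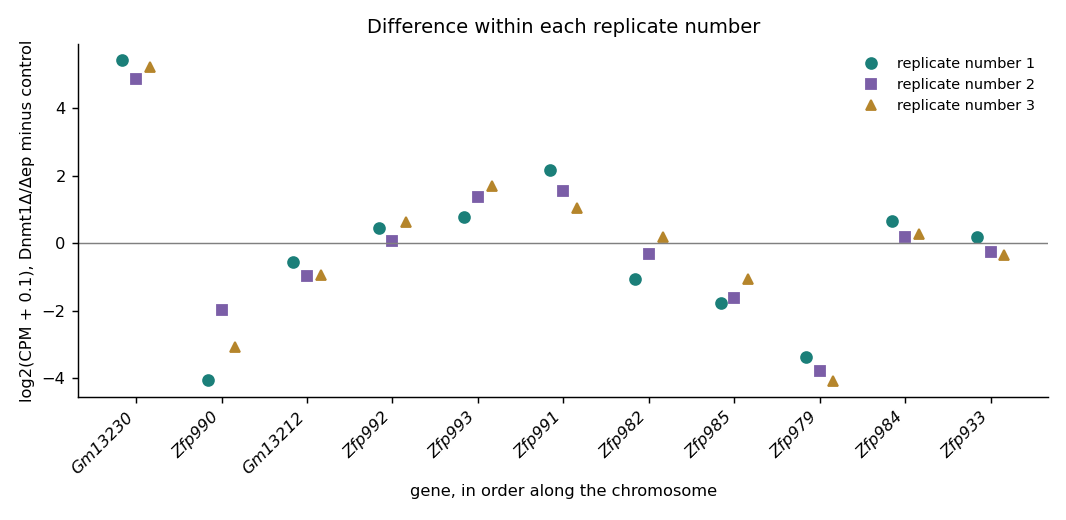
Difference in log2(CPM + 0.1) between the Dnmt1Δ/Δep and the control library of the same replicate number, for the 11 tested zinc finger members in order along the chromosome; each symbol is 1 replicate number. Gm13230 lies between 4.88 and 5.44, Zfp979 between -4.09 and -3.37, and Zfp985 lies below and Zfp991 above 0 in all 3 numbers.

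The 9 coding zinc finger genes that could not be tested had few unique reads. Zfp980 had 0 counts in every control library and 12, 2 and 0 in the Dnmt1Δ/Δep libraries, so that most of its reads came from a single library. Zfp988 had 18, 4 and 3 counts in controls and 1, 0 and 5 in Dnmt1Δ/Δep libraries, and Zfp978 had 22, 0 and 0 against 7, 3 and 11. Zfp981 had 0, 5 and 11 counts in controls and 4, 4 and 15 in Dnmt1Δ/Δep libraries, and Zfp534 had 13 counts in all. None of these genes passed the filter on low counts, so their groups were not compared. Zfp986, Zfp600 and Zfp989 had 4, 2 and 2 counts over all libraries, and Zfp987, with 89.0% of its words shared, had none.

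RefSeq promoter entries (GRCm38.p6) were found for 17 of the 77 members, and 14 of them began within 100 bases of the GENCODE start, 11 of these being coding zinc finger genes. No entry was used for the tested zinc finger members Gm13230, Zfp990, Zfp991, Zfp992 and Zfp993. The 250 bases before the start are shown for Zfp979, which was called lower, for its neighbours Zfp985, Zfp982 and Zfp984, which were not called, and for Zfp600, the member whose promoter was most like that of Zfp979. They are read 5′ to 3′ on the strand of the gene, with the dinucleotide CG, the site of DNA methylation, in capitals. The stretches are chr4:147642509-147642758 (minus), chr4:147553027-147553276 (plus), chr4:147492167-147492416 (plus), chr4:147809789-147810038 (minus) and chr4:146156577-146156826 (plus).
Zfp979: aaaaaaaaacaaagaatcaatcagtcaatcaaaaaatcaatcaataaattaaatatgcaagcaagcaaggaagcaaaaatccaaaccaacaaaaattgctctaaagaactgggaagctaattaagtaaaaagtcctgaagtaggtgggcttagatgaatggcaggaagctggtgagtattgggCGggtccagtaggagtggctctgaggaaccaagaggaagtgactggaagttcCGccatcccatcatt
Zfp985: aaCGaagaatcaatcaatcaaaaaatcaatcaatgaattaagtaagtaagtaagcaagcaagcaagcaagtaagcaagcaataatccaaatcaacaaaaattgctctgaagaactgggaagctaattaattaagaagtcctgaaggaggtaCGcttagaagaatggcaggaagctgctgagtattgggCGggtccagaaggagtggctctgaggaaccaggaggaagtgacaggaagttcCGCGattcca
Zfp982: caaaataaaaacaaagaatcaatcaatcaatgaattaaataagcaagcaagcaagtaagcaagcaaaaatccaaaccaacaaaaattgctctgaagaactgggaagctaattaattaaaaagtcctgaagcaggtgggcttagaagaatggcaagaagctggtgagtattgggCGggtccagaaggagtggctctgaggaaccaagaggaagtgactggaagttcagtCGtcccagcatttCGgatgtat
Zfp984: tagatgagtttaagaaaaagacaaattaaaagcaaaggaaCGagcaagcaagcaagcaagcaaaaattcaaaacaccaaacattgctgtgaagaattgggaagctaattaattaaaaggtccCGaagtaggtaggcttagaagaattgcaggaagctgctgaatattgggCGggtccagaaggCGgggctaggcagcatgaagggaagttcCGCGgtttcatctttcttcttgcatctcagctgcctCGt
Zfp600: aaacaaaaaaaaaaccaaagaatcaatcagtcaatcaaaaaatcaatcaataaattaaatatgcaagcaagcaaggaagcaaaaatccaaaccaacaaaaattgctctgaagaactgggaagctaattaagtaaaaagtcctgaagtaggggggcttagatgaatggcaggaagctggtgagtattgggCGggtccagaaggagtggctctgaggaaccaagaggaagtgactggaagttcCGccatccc
In a global alignment, the promoter of Zfp979 was identical at 96.4% of the 250 positions with that of Zfp600, which had 2 counts in the 6 libraries. It was identical at 88.8% with that of Zfp982, at 86.4% with that of Zfp985 and at 75.2% with that of Zfp984, whereas the promoter of Zfp933 reached only 57.6%. The number of CG was 2 for Zfp979 and Zfp600, 3 for Zfp982, 5 for Zfp985, 7 for Zfp984 and 8 for Zfp933, beside a median of 6 over all 32536 distinct promoter stretches of this length. Of the other matched zinc finger members, whose promoters are not shown, the tested Gm13212 had 4, and among the untested ones Zfp987 had 2 and Zfp980, Zfp988 and Zfp534 had 1 each.

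The longest run common to the 5 promoters of tested zinc finger members other than Zfp933 (Gm13212, Zfp982, Zfp985, Zfp979 and Zfp984) was TATTGGGCGGGTCCAG, which contains the GC box GGGCGG. Searched on both strands, the 16-base run occurred in 9 of the 32536 stretches (0.028%), all of them on chromosome 4, namely in 8 members and in Rex2, another zinc finger gene of the window. GGGCGG alone occurred in 33.0% of all stretches. The run was found by comparing the members with each other, so that its rarity elsewhere is a description and not a test. The 5 tested members that hold it had log2 fold changes from -4.02 (Zfp979) to 0.38 (Zfp984), and the untested Zfp600, Zfp980 and Zfp988 hold it too. Of the 5, Zfp979 was called, and with the replicate block Zfp985 was too. Zfp984 was the only one above 0, at 0.38 ± 0.36 and, with the block, 0.37 ± 0.15 (SE), not called in either fit.

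Beyond the members, the window holds 27 other genes, of which 12 were tested, 3 were called higher and 0 lower by edgeR and by DESeq2 (4 and 0 with the block), and 4 were lower at an unadjusted p under 0.05. They were Platr16, Tnfrsf1b (log2 fold change 2.00 ± 0.26, SE) and Nppb (2.34 ± 0.54, SE), of which the last 2 are a cytokine receptor and a natriuretic peptide without shared words. The lincRNA Gm20707, which overlaps the start of Zfp984, had a log2 fold change of -0.56 ± 0.24 (SE) and was not called. At the proximal limit of the window the first member inside was Gm13024 with 10 counts in all and the first gene outside was Gm38074 with 1 count. At the distal limit the last member inside was 2510039O18Rik and the first gene outside was Nppa with 0 counts.

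The same rule on symbols and biotypes was applied to other parts of the genome rich in zinc finger genes. On distal chromosome 2 (chr2:174643534-177982700) it gave 84 genes, of which 13 could be tested and 0 were called, with 0 at an unadjusted p under 0.05 in edgeR's test and 0 called by DESeq2. On chromosome 13 (chr13:62013035-67844035) it gave 77 genes, 39 tested and 0 called, with 3 lower at an unadjusted p under 0.05 and again 0 called by DESeq2. Among 298 tested Zfp genes in the rest of the genome, 1 was called higher and 0 lower in edgeR's test, 3 and 0 in DESeq2's and 5 and 0 with the replicate block. An unadjusted p under 0.05 was given to 16 of them on the higher and 22 on the lower side. The median size of the log2 fold change was 0.31 in the chromosome 2 window, 0.19 in the chromosome 13 window and 0.16 for the Zfp genes elsewhere, beside 0.80 for the members. The median share of shared words was 74.8% in the tested genes of the chromosome 2 window, 11.99% in those of the chromosome 13 window and 29.5% in the tested members. Whether the clusters differ from each other was not tested, because the chromosome 4 members had been chosen on this comparison.

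Dnmt1 itself fell from 365.5 ± 37.2 CPM in controls to 51.6 ± 2.4 CPM in Dnmt1Δ/Δep cells (SD, n = 3 each; log2 fold change -2.83 ± 0.11, SE). Of 33 genes listed for corepressors and for methylation machinery, all tested, 1 was called higher and 0 lower by edgeR and by DESeq2. At an unadjusted p under 0.05 in edgeR's test, 5 were higher and 4 lower. The called gene was Suv39h2, a histone H3 lysine 9 methyltransferase, at 16.1 CPM in controls and 42.0 CPM in Dnmt1Δ/Δep cells (log2 fold change 1.38 ± 0.18, SE, adjusted p = 0.00465 in edgeR's test). Its paralogue Suv39h1 (log2 fold change -0.46, adjusted p = 0.0447 in edgeR's test) and the zinc finger gene Zfp809 (0.63, adjusted p = 0.0236) passed the adjusted p but not the limit of 2-fold. The corepressor Trim28 (log2 fold change -0.13) and the methyltransferase Setdb1 (-0.08) were not called. The 6 keratinocyte markers were detected in all libraries. Their summed level, mostly Krt5 and Krt14, was 28287 to 31758 CPM in controls and 20126 to 20701 CPM in Dnmt1Δ/Δep cells. By edgeR 0 of 6 were called and 5 were lower at an unadjusted p under 0.05. Of the 6, 3 passed the adjusted p but not the limit of 2-fold, and DESeq2 called 2 lower. The mean of Krt1 was 313 CPM in controls and 63.6 CPM in Dnmt1Δ/Δep cells, and that of Krt10 was 23.8 and 7.98 CPM. The groups of both overlapped.

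Markers of other cell types were also read in both groups. The 6 melanocyte markers summed to 221 to 564 CPM in controls and 676 to 897 CPM in Dnmt1Δ/Δep libraries, with 0 of 6 called by edgeR, 3 higher at an unadjusted p under 0.05, 1 called by DESeq2 and 2 with the block. The 3 endothelial markers summed to 4.32 to 16.5 and 13.5 to 20.8 CPM, with Pecam1 and Cdh5 called higher, whereas Kdr, at 6.81 and 6.11 CPM, was not called and made up 13.3 CPM of the highest control sum. The 6 leukocyte markers summed to 0.275 to 1.01 and 2.52 to 4.41 CPM, with Itgam and Csf1r called higher by edgeR and 1 marker called with the block, and Ptprc had means of 0.0124 and 0.0710 CPM. The 6 fibroblast markers summed to 12.2 to 28.0 and 11.96 to 58.8 CPM, and the 2 Merkel cell markers to 0.465 to 0.624 and 0.695 to 2.53 CPM, with 0 called in both lists by edgeR and DESeq2 and 1 fibroblast marker higher at an unadjusted p under 0.05. Whether any of these cells carried reads of the cluster was not tested, and fewer cells of a type and less RNA per cell cannot be told apart in bulk RNA.

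Retroelements known as targets of such proteins were counted in a second table, in which reads are assigned to repeat names. Of the 17 names examined, 9 were called higher, beside 8.21% of the 938 repeat names tested. ETnERV3-int had 36.7, 36.0 and 59.1 repeat counts, scaled to CPM of the gene counts, in controls and 1695, 1683 and 1818 in Dnmt1Δ/Δep libraries, with a log2 fold change of 4.95 ± 0.32 (SE) after scaling to the repeat counts. MMETn-int, an internal part of the ETn family, had 724, 647 and 499 in controls and 1220, 999 and 1335 in Dnmt1Δ/Δep libraries. Its groups did not overlap on this scale, on which its log2 fold change was 0.92 ± 0.23 (SE). Scaled to the repeat counts, as the calls were, it was 0.57 ± 0.18 (SE). MMETn-int was below 2-fold on both scales and called on neither, and on the repeat counts its adjusted p was 0.104 in edgeR's test. On the scale of the repeat counts, its long terminal repeat RLTRETN_Mm stood at 0.41 ± 0.17 and ETnERV2-int, another internal part of the family, at -0.40 ± 0.18 (SE), both not called. Scaled to the gene counts, they stood at 0.77 and -0.04, again not called. Whether the levels of Zfp979 or Zfp990 bear on these elements was not tested.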

How the data were processed

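Poly(A) RNA of cultured keratinocytes was sequenced for 3 control and 3 Dnmt1Δ/Δep mice, which the labels name as separate mice. The authors aligned reads with STAR and used htseq-count on unique mappers, so the deposited gene values are raw counts per gene without normalization. The deposited repeat table holds raw counts per repeat name, made by the authors with bowtie and RepEnrich. The processing notes in the labels name GRCm38, whereas the methods name a human index for the gene alignment, and the identifiers are of mouse. Read length and the strand setting of the counting are not given in the sources used here. The deposited tables of the authors' own comparisons hold fold changes and p-values and were not used, nor were the 12 columns of per-library values in them. The 5 entries that name no gene took 8.73% to 12.9% of each library and were not used.

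Counts were fitted with edgeR 4.0.16 (R 4.3.3; TMM factors 0.980 to 1.02, filterByExpr with minimum counts of 10 and 15, quasi-likelihood test, Benjamini-Hochberg adjustment over all genes tested). DESeq2 1.42.0 was an alternative. For SEs, the absolute log2 fold change was divided by the root of the F statistic. Data simulated from these libraries (16829 genes) were read at an adjusted p of at most 0.05, without the 2-fold limit. There edgeR recovered 80 of 100 genes changed by a log2 value of 1.5 and 95 of 100 changed by 2, with 5 false positives. DESeq2 recovered 89 and 96, with 61 false positives. The changes were placed only in genes at higher levels than several tested members, among them Zfp985 and Zfp993, and libraries were drawn without pairing. The recovery therefore does not apply to those members. CPM used TMM-scaled library sizes, and RPKM the union of exons. GENCODE M21 gave positions and transcripts and matched 42548 of the 43629 identifiers (97.5%). Words of 50 bases were compared between transcripts on both strands, which leaves out copies in introns or between genes. Promoters came from RefSeq on GRCm38.p6 and were aligned globally with Biopython 1.88. Counting intervals are 95% exact binomial intervals of the ratio, and intervals and limits cover counting error only.

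The replicate numbers pair the libraries. Libraries of 1 number shared a lane according to the table headers, and their deviations from the group means correlated at 0.46, 0.40 and 0.31 over genes and 0.68, 0.56 and 0.51 over repeats. The block for this number was an alternative, since the study's methods use none.

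The members and lists were chosen with earlier results of these data known. Named are Gm13230, Zfp979 and Zfp990, every called member, the 8 members with the highest mean RPKM, the nearest tested members beside called ones, the genes at both limits of the window, Dnmt1 and the called gene of the corepressor list. The remaining tested members, the untested members and the other genes of the window were named after their values were seen.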

Additional observations from a re-analysis of the deposited data

How the results depend on the processing

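Gm13230 and Zfp979 were called in the same direction in all 12 alternative fits, which were 2 other scalings, DESeq2's Wald test, no filter on low counts, a mean RPKM of at least 1, the replicate block and each of the 6 libraries left out. Zfp990 was called in 10 of its 11 fits. Against 1 member called higher and 2 lower as reported, DESeq2 and the fit without a filter each called 2 higher and the replicate block 3 higher and 3 lower, adding Zfp991, Zfp993 and Zfp985. A mean RPKM of at least 1 left 1 lower, because Zfp990 no longer passed the filter. Members that shared under 20% of their words held 0 called higher and 0 lower, and those with under 10% exon overlap 0 called higher, since these limits by their construction leave out the members so called. Over every gene of the window 4 were called higher. The block changed no other call of a member. With 1 library left out, the count lay between 1 and 2 in each direction: without control replicate 3 the count called higher was 2, with Zfp991 at a log2 fold change of 2.16, and without Dnmt1Δ/Δep replicate 1 the count called lower was 1.

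The median log2 fold change of the tested members was -0.20 as reported, -0.068 with DESeq2, 0.014 without a filter, 0.14 at a mean RPKM of at least 1 and -0.29 among members sharing under 20% of their words. It lay between -0.22 and 0.31 with 1 library left out. These medians are over 16 members as reported, 32 with DESeq2, 60 without a filter and 6 at that RPKM. With 1 library left out they are over 16 to 22 members. The medians alone therefore do not tell a shift of the same genes from a change of members. A median over the same genes in each fit is not given here. Zfp933 lay between -0.31 and 0.00258 with 1 library left out, the upper value without control replicate 3, where its sign turned. The cause was not tested.

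The filter on low counts left 61 members untested, and without it 60 of the 77 were tested. A read shared by several members is in none of the counts. MERVL-int (1.21) and RLTR4_Mm (1.32) were called with gene library sizes, and MuLV-int was not called without Dnmt1Δ/Δep replicate 2 (2.31) or replicate 3 (2.25).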
